A study of Mus musculus with 18 samples.

Results

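*Gdf9* and *Bmp15* encode growth factors that the oocyte secretes to the granulosa cells around it. They are 2 of the 28252 genes of the TPM table (TPM, a level scaled for gene length and library size), were chosen by gene symbol, and were followed over all 18 libraries. The libraries fall into 6 groups of 3: primordial follicle oocytes, primary follicle oocytes and mature metaphase II (MII) oocytes, each grown *in vivo* or *in vitro*, all from mice of the C57Bl/6j x CBA/J cross without any mutant allele or transgene named in the labels. Primordial and primary oocytes were taken by laser capture microdissection (LCM) from sections of ovaries fixed in paraformaldehyde and embedded in paraffin. The *in vivo* ones came from non-cultured ovaries of 14-day-old mice. The *in vitro* ones came from ovaries removed at 7 days of age and cultured for 7 days with serum, insulin-transferrin-selenium and recombinant FSH. *In vivo* MII oocytes came from superovulated adult mice, and *in vitro* MII oocytes from follicles of cultured ovaries that were grown for 12 more days in alginate and then given hCG. Each MII library held 10 oocytes, and the RNA of LCM caps of one stage was pooled during extraction, so how many animals stand behind each library is not given in the sources used here. P-values therefore measure the spread between these libraries, which may be partly technical. MII libraries were made with Smart-seq II and LCM libraries with whole-transcriptome amplification and exome capture (TruSeq RNA Access), so stage and library preparation cannot be told apart between them, and no test compared them.

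GDF9 and BMP15 belong to the TGF-β family. Both are made as precursors, cut by furin-like convertases, and act as homodimers or as a GDF9:BMP15 heterodimer on type II receptor BMPR2 together with a type I receptor on granulosa cells, ALK5 (encoded by *Tgfbr1*) for GDF9 and ALK6 (*Bmpr1b*) for BMP15, after which Smad2/3 or Smad1/5/8 carry the signal to the nucleus. In the mouse, loss of *Gdf9* stops follicles at the primary stage, whereas loss of *Bmp15* only lowers fertility. Both factors later drive the expansion of the cumulus cells around the ovulated egg.

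In GENCODE release 21 on GRCm38 (mm10), *Gdf9* (ENSMUSG00000018238) lies on the plus strand of chromosome 11 from 53431023 to 53437904, and its coding transcript has 2 exons and 1793 bases. *Bmp15* (ENSMUSG00000023279) lies on the minus strand of chromosome X from 6314107 to 6320721, with 1 transcript of 2 exons and 3060 bases. No annotated gene overlaps either one, and the nearest gene to *Gdf9*, *Uqcrq*, is 191 bases away on the opposite strand. The *Bmp15* promoter from RefSeq (GRCm38.p6) is printed because *Bmp15* is the member whose RNA was at or near 0 in most primordial libraries and at 166 to 556 TPM in MII oocytes. It covers chrX:6320725-6320974, the 250 bases before the start of the gene, read 5′ to 3′ on the minus strand. Capitals mark, in order, a match to the NOBOX element, to the E-box and to the TATA box.
Bmp15 promoter: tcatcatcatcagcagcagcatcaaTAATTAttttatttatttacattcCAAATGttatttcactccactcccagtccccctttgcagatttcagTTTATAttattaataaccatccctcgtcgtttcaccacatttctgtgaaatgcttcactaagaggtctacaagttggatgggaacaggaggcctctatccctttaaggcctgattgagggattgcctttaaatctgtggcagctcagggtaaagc
Motifs were searched on both strands as the letters TAATTG, as TAGTTG or as TAATTA (NOBOX, a homeobox factor of oocytes), CANNTG (the E-box, the letters that basic helix-loop-helix factors such as FIGLA and SOHLH1 read) and TATAAA. The *Bmp15* window holds TAATTA at 225 bases, CAAATG at 201 bases and TTTATA, which is TATAAA on the other strand, at 155 bases before the start, and these matches do not overlap. Of the 32851 promoters in the RefSeq table, 16.1% hold a NOBOX element, 66.2% an E-box and 12.4% a TATA box, so each of these matches is a description of the letters and not a site.

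*Gdf9* was read in every library, lowest in primordial, higher in primary and highest in MII oocytes, with 1 primordial library as the exception. In primordial oocytes *in vivo* its TPM was 9.67, 7.05 and 1.00 in replicates 1 to 3, from 135, 101 and 15 counts. In primordial oocytes *in vitro* its TPM was 3.34, 408 and 0.382, from 32, 7061 and 5 counts. Replicate 2 of the *in vitro* group thus stood at 42.2 times the highest of the other 5 primordial libraries, and those 5 overlapped between *in vivo* and *in vitro*. In primary oocytes the TPM of *Gdf9* was 112, 74.4 and 104 *in vivo* and 148, 68.8 and 135 *in vitro*. Every primary library was above every primordial library except primordial *in vitro* replicate 2, and the *in vivo* and *in vitro* values overlapped. In MII oocytes it reached 14549, 8623 and 10715 TPM *in vivo* and 4976, 7563 and 7601 TPM *in vitro*. It ranked between 6 and 23 among the genes of the TPM table in these 6 libraries and took 0.446% to 1.06% of all their counts.

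*Bmp15* stood far below *Gdf9* in all but 1 library and was close to undetected in primordial oocytes. In primordial oocytes *in vivo* it had 0, 1 and 0 counts, and *in vitro* 0, 69 and 6 counts, the 69 falling in the same replicate 2 in which *Gdf9* was high. At the depth of the LCM libraries, a count of 0 allows up to 3 counts, or 0.103 to 0.198 on the CPM scale that corrects for library size, counting error only. In primary oocytes its TPM was 1.13, 0 and 2.43 *in vivo* and 3.93, 1.47 and 3.94 *in vitro*, from 24, 0 and 38 and from 83, 34 and 97 counts. One primary library *in vivo*, replicate 2, therefore had no *Bmp15* read although it held 1103 counts of *Gdf9*. The summed TPM of 9 stroma and theca markers was 30496 in that library, against 453 to 4128 in the other 11 LCM libraries, and its part in the *Bmp15* value was not tested. In MII oocytes *Bmp15* was at 249, 298 and 166 TPM *in vivo* and at 365, 500 and 556 TPM *in vitro*. There all 3 *in vitro* libraries were above all 3 *in vivo* libraries, the reverse of the order of *Gdf9*.

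**Figure D1:**
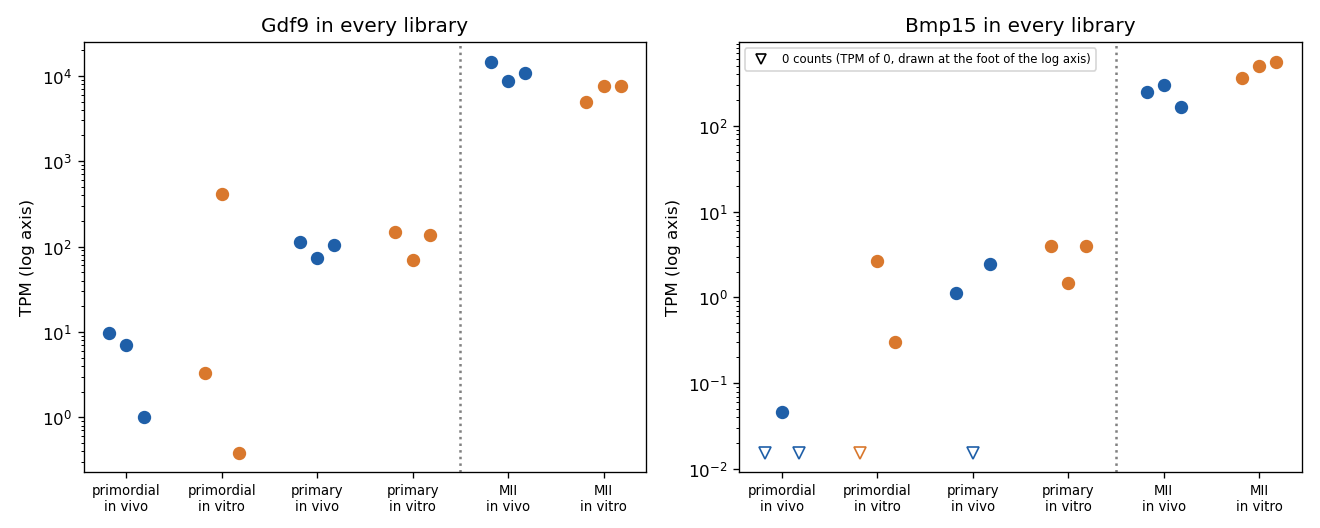
TPM of *Gdf9* (left) and *Bmp15* (right) on log axes in each of the 3 libraries of the 6 groups, with *in vivo* groups in blue and *in vitro* groups in orange. Open triangles stand for libraries with 0 counts and the dotted line parts the 2 library preparations. Primordial *in vitro* replicate 2 is the 1 primordial library above 100 TPM of *Gdf9*.

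Ordered by mean TPM, *Gdf9* ran from MII *in vivo* (11296 ± 3005, SD, n = 3) over MII *in vitro* (6713 ± 1504), primordial *in vitro* (137 ± 235), primary *in vitro* (117 ± 42.6) and primary *in vivo* (96.9 ± 19.8) to primordial *in vivo* (5.91 ± 4.45). Of these neighbours, the ranges of primordial *in vitro*, primary *in vitro* and primary *in vivo* overlapped one another in turn, and the other neighbouring ranges were apart. The place of primordial *in vitro* in that order came from its replicate 2: without it the group's mean was 1.86 TPM. For *Bmp15* the order was MII *in vitro* (473 ± 97.9), MII *in vivo* (238 ± 66.7), primary *in vitro* (3.11 ± 1.42), primary *in vivo* (1.19 ± 1.21), primordial *in vitro* (0.984 ± 1.45) and primordial *in vivo* (0.0154 ± 0.0268), and below MII *in vivo* every neighbouring pair overlapped. Mean TPM in MII oocytes was 117 times that in primary oocytes *in vivo* and 57.2 times *in vitro* for *Gdf9*, and 201 and 152 times for *Bmp15*, values across 2 library preparations that carry no test.

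The first question was how the factors differed between dormant primordial and activated primary follicles. *In vivo*, *Gdf9* was at 65.1 ± 24.4 normalized CPM in primary against 3.44 ± 2.52 in primordial oocytes (SD, n = 3 each), and the 3 primary libraries were all above the 3 primordial ones. In edgeR's quasi-likelihood test over 15317 genes the log2 fold change was 4.24 with a 95% interval from -1.88 to 10.4 (adjusted p = 0.599), and the gene was not called at an adjusted p below 0.05 and a fold of at least 2. That test called 8 genes in all, 0.0522%, and 2.36% of genes tested were higher in all primary than in all primordial libraries *in vivo*, as *Gdf9* was. The summed TPM of 6 blood and vessel markers was also apart between these groups, at 7503, 2368 and 1226 in primary and 0, 200 and 7.77 in primordial oocytes *in vivo*, mostly from the hemoglobin genes *Hba-a1* and *Hbb-bs*, and its part in the *Gdf9* difference was not tested. *Bmp15* had 62 counts in primary against 1 in primordial oocytes *in vivo*, a ratio of 67.4 after scaling to depth with a 95% counting interval from 11.7 to 2704, which leaves out the spread between libraries. Its edgeR adjusted p was 0.495, the groups shared libraries at 0, and the fitted fold change of a gene so near 0 depends on the prior count.

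*In vitro*, the stages overlapped for both genes. *Gdf9* was at 60.6 ± 12.96 normalized CPM in primary and 87.9 ± 150 in primordial oocytes, with an edgeR log2 fold change of -0.54 (95% interval -5.91 to 4.83, adjusted p = 1). Without primordial replicate 2 the sign turned and the value was 5.57 (edgeR adjusted p = 0.632). *Bmp15* was at 2.39 ± 0.815 against 0.947 ± 1.40 normalized CPM, a log2 fold change of 1.33 (edgeR adjusted p = 1), and 3.97 without primordial replicate 2. Here edgeR called 0 of all genes (0%), with 1673 genes (10.9%) below an unadjusted p of 0.05, while DESeq2 called 450.

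Pooled over both growth conditions, which was tried after the values were seen, mean log2 CPM in primary oocytes was above that in primordial oocytes by 3.94 for *Gdf9* and by 2.59 for *Bmp15*. An exact permutation of stage within each growth condition, two-sided over 400 splits, gave p = 0.02 for *Gdf9* and p = 0.05 for *Bmp15*, unadjusted for the 2 genes, where the smallest possible p is 0.005. For *Gdf9* the difference was 5.30 without primordial *in vitro* replicate 2. The exact permutation p was then 0.005, the smallest possible. That outcome was fixed by removing the 1 primordial library not below every primary one, and it is no support for the difference. Leaving out any other single library gave exact p between 0.035 and 0.055. For *Bmp15* the exact p lay between 0.01, without primary *in vivo* replicate 2, and 0.095, without primordial *in vitro* replicate 1.

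Among primary oocytes *Gdf9* varied little. Its normalized CPM lay between 44.3 and 92.0 in the 6 primary libraries, a coefficient of variation (CV, the SD as a percentage of the mean) of 28.1%. Over the 6421 genes with a mean of at least 10 CPM there, the median CV was 119% and 0.374% of genes had a smaller one, a description and not a test. Pooling both growth conditions adds their difference to the CV. Within the *in vivo* and the *in vitro* primary group, 2.4% and 5.4% of such genes had a smaller CV than *Gdf9*. In the 6 primordial libraries the CV of *Gdf9* was 231%, against a median of 141%. In MII oocytes *in vitro* it was 6.89%, against a median of 26.9%, and *in vivo* 37.7%, against a median of 33.2%.

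The second question was how cultured and non-cultured ovaries differed in small follicles. In primordial oocytes edgeR gave a log2 fold change *in vitro* against *in vivo* of 4.67 for *Gdf9* (95% interval -1.57 to 10.9, adjusted p = 0.52), which without *in vitro* replicate 2 turned to -1.43 (edgeR adjusted p = 0.984). *Bmp15* had 75 counts *in vitro* against 1 *in vivo*, a depth-scaled ratio of 82.4 with a counting interval from 14.3 to 3296, and 69 of the 75 were from that replicate (edgeR adjusted p = 0.469, log2 fold change 5.70, and 3.05 without the replicate). The groups overlapped for both genes. edgeR called 0.0326% of all genes in this comparison, neither member among them.

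In primary oocytes *Gdf9* was at 60.6 ± 12.96 normalized CPM *in vitro* and 65.1 ± 24.4 *in vivo*, a log2 fold change of -0.10 whose edgeR 95% interval, -5.46 to 5.25, is wide (adjusted p = 1). Its sign turned with the scaling of the libraries, to 0.42 with library size alone. *Bmp15* was at 2.39 ± 0.815 against 1.16 ± 1.05 normalized CPM, a log2 fold change of 1.05 (95% interval -4.70 to 6.80, edgeR adjusted p = 1). edgeR called 0 genes (0%) here, with 1479 (9.66%) below an unadjusted p of 0.05, and DESeq2 called 254. The culture effects at the 2 stages differed by -4.78 log2 units for *Gdf9* and -4.65 for *Bmp15* (edgeR interaction, adjusted p = 0.807 and 0.832), in a test that called 0.104% of genes. Without primordial *in vitro* replicate 2 the values were 1.33 and -2.

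In MII oocytes the 2 genes lay on opposite sides. The *in vivo* and *in vitro* groups there differed in animal age and hormone treatment as well as in growth, and these cannot be told apart. *Gdf9* was at 12548, 6267 and 7579 normalized CPM *in vivo* and at 4951, 5112 and 5641 *in vitro*. *Bmp15* was at 324, 327 and 177 normalized CPM *in vivo* and at 547, 509 and 621 *in vitro*. For *Gdf9* every *in vitro* library lay below every *in vivo* library, and for *Bmp15* every *in vitro* library lay above. The log2 fold change *in vitro* against *in vivo* was -0.75 for *Gdf9* (95% interval -1.56 to 0.06, adjusted p = 0.504 by edgeR), rank 2274 of 17144 genes by p, and was -0.40 without *in vivo* replicate 1, the highest library. For *Bmp15* it was 1.02, a 2.03-fold difference with an interval from 1.22 to 3.36 (edgeR adjusted p = 0.357), rank 468 by p. Neither passed the threshold, which 60 genes did (0.35%), and groups did not overlap for 9.37% of genes in the direction of *Bmp15* and 6.81% in that of *Gdf9*.

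**Figure D2:**
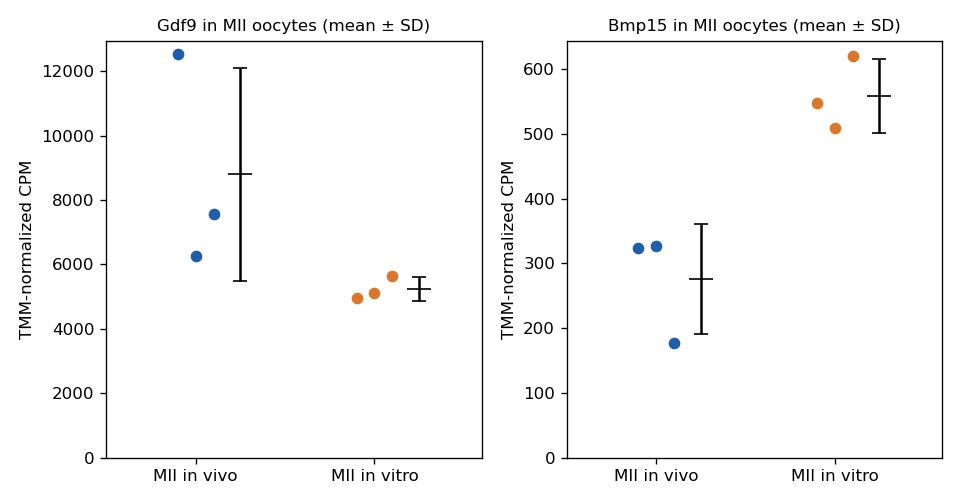
TMM-normalized CPM of *Gdf9* (left) and *Bmp15* (right) in the 3 *in vivo* (blue) and 3 *in vitro* (orange) MII libraries, on linear axes from 0, with black marks for the mean ± SD. The *in vitro* libraries of *Gdf9* sit between 4951 and 5641, below all *in vivo* ones, and those of *Bmp15* between 509 and 621, above all *in vivo* ones.

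**Figure D3:**
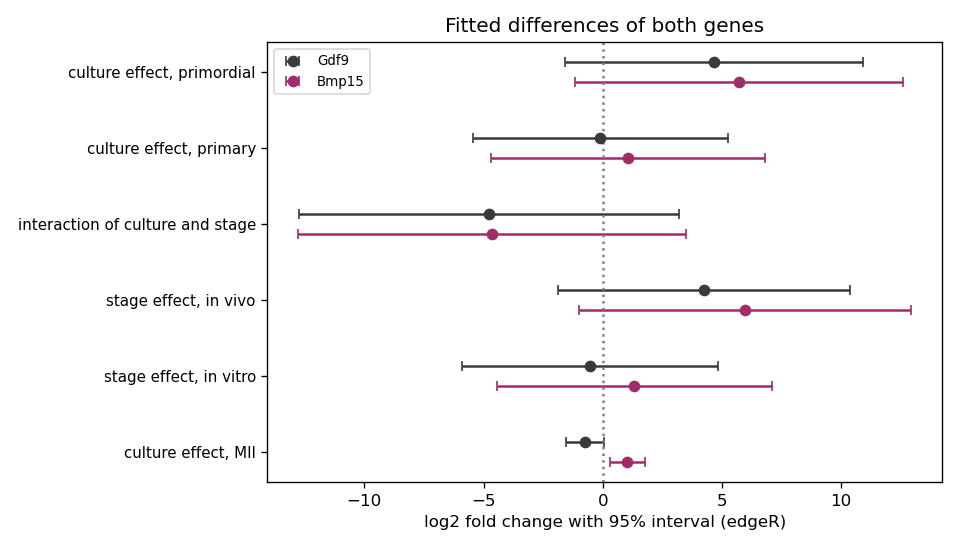
Log2 fold changes of *Gdf9* (grey) and *Bmp15* (purple) with 95% intervals from edgeR in the 6 comparisons: *in vitro* against *in vivo* (culture effect), primary against primordial (stage effect) and the culture effect in primary minus that in primordial oocytes (interaction). All 10 intervals from LCM oocytes span 0, and in MII oocytes that of *Bmp15*, 0.29 to 1.75, does not. In MII oocytes culture cannot be told apart from animal age and hormone treatment.

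How much *Bmp15* RNA a library held for its *Gdf9* RNA does not depend on library size. In MII oocytes *Bmp15* TPM was 1.71%, 3.46% and 1.55% of *Gdf9* TPM *in vivo* and 7.34%, 6.61% and 7.31% *in vitro*. The ratio was 3.38 times higher *in vitro*, a difference of 1.76 on the log2 scale, with no overlap. The two-sided exact permutation test gave p = 0.1, the smallest that 3 libraries against 3 can give. That outcome was fixed, because both genes were already apart between these groups in opposite directions. The ratio restates those separations and is no further support for them. In primary oocytes the ratio was 1.01% and 2.32% in the *in vivo* libraries with more than 3 counts of both genes and 2.65%, 2.14% and 2.92% *in vitro*, which overlapped (log2 difference 0.73, exact permutation p = 0.4). With 1 added to each TPM all 6 primary libraries could be used, and the log2 difference was 0.79 without overlap (exact permutation p = 0.1, the smallest possible). In primordial oocytes only *in vitro* replicates 2 and 3 could be used, at 0.649% and 79.7%, the latter from 5 counts of *Gdf9* and 6 of *Bmp15*. Primary against primordial oocytes gave a log2 difference of -1.79 over 5 and 2 libraries (exact permutation p = 0.571), and these 3 p-values are unadjusted.

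**Figure D4:**
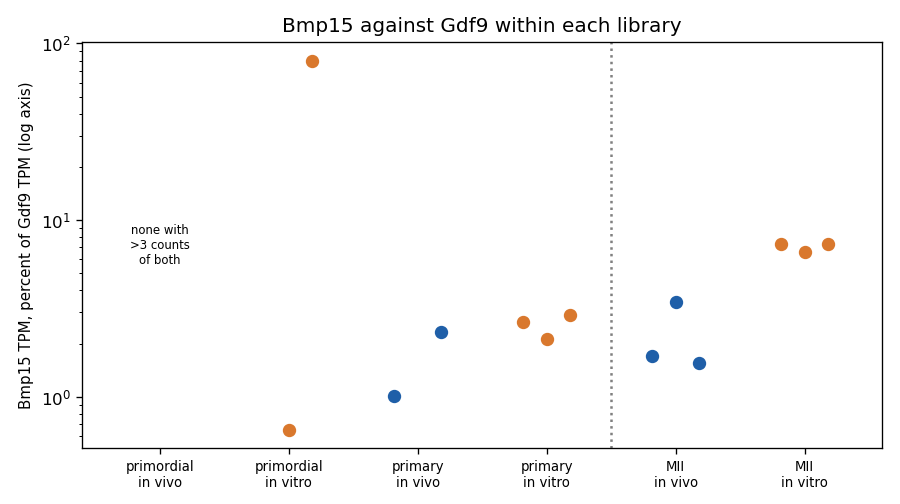
*Bmp15* TPM as a percentage of *Gdf9* TPM on a log axis, 1 point for each library with more than 3 counts of both genes, *in vivo* in blue and *in vitro* in orange. The 3 MII *in vitro* libraries lie between 6.61% and 7.34%, above the 3 MII *in vivo* libraries.

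The other genes of the pathway were taken from a list of 74 that includes both members, by role. No gene of the list was called in any comparison by edgeR, out of 61 tested in LCM and 50 in MII oocytes. At an unadjusted edgeR p below 0.05 there were 11 of 61 in the primordial culture comparison, where 11.7% of all genes were. In the primary one there were 7 of 61, with 9.66% of all genes. The interaction had 12 of 61 (11.5% of all genes) and stage *in vivo* 9 of 61 (11.2%). Stage *in vitro* had 6 of 61 (10.9%) and MII oocytes 9 of 50 (10.2%). The median log2 fold change of the list was 0.32 in the primordial culture comparison, where that of all genes was 0, and 0.93 against 0.44 in the primary one. It was 0.27 against 0.91 in the interaction, 0 against 0 for stage *in vivo*, 0.66 against 0.44 for stage *in vitro* and 0.14 against 0.04 in MII oocytes. *Tgfb3*, *Inhba*, *Acvr2a*, *Fstl3*, *Chrd* and *Furin* overlap an annotated gene on the opposite strand, and their counts are uncertain, since the sources used here do not say whether counting used strand. *Bmpr2* overlaps a gene on its own strand, and its count is uncertain with either setting.

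Among ligands, *Tgfb3*, whose product is a TGF-β, had 8635, 4381 and 2198 counts in primordial oocytes *in vivo* and 0, 1 and 17 *in vitro* (edgeR adjusted p = 0.359). *Inhba*, the activin βA subunit, had 0 counts in every MII *in vivo* library and 23, 15 and 51 *in vitro* (edgeR adjusted p = 0.153). *Tgfb3* was thus apart between groups in primordial oocytes and *Inhba* in MII oocytes without passing the test. In MII oocytes 9.37% of all genes were apart in the direction of *Inhba*, and the share for primordial oocytes is not given here.

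Among receptors, *Bmpr2*, the shared type II receptor, was read in all 18 libraries and gave adjusted p-values of 0.527 to 1 by edgeR over the 6 comparisons. *Tgfbr1*, which encodes ALK5, had 366, 613 and 4373 counts in primordial oocytes *in vivo* and 3, 22 and 8 *in vitro* (edgeR adjusted p = 0.387). *Bmpr1b*, which encodes ALK6, had 1986, 804 and 1053 counts in MII oocytes *in vivo* and 1121, 697 and 757 *in vitro* (edgeR adjusted p = 0.563). The *Bmpr1b* groups overlapped, and these 3 receptors were named for their role and not by their p. *Acvr2a*, an activin type II receptor, had the smallest p of the list in the interaction (edgeR adjusted p = 0.178). Its counts rested on single libraries, 7689 in primordial *in vivo* replicate 2 and 2633 in primary *in vitro* replicate 1, and were 15 or fewer in the other 10 LCM libraries.

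Inhibitors and follicle targets differed widely between replicates. The inhibitory *Smad6* had 4471, 16 and 0 counts in primordial oocytes *in vivo* and 0 in all 3 primary *in vivo* libraries (edgeR adjusted p = 0.38 for stage *in vivo*), and *in vitro* 1, 2 and 8789 counts in primordial and 19, 452 and 0 in primary oocytes. *Smad7*, the other inhibitory Smad, had 0 counts in every primordial *in vivo* library and 0, 823 and 1 in the primary *in vivo* ones (edgeR adjusted p = 0.38), and *in vitro* 0, 2 and 483 in primordial and 907, 2116 and 1463 in primary oocytes. Neither gene passed the test, and the groups with high counts also held libraries at or near 0, except *Smad7* in primary oocytes *in vitro*. *Chrd*, a BMP antagonist, was read in 1 library only, with 910 counts in primary *in vivo* replicate 2, the library without a *Bmp15* read. *Fstl3*, an activin antagonist, had at most 66 counts in any LCM library (interaction adjusted p = 0.225 by edgeR). *Lhcgr*, the LH receptor, had 679, 0 and 391 counts in primary oocytes *in vitro* and 0 in the other LCM libraries (edgeR adjusted p = 0.384 for stage *in vitro*). *Grem1*, a BMP antagonist that GDF9 induces in cumulus cells, had 0 counts in every MII *in vivo* library and 41, 28 and 22 *in vitro* (edgeR adjusted p = 0.142).

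In MII oocytes, the 9 genes of the list below an unadjusted p of 0.05 included members of several roles. *Smad2*, a carrier of the GDF9 signal, was at 75.5 ± 6.56 normalized CPM *in vitro* and 34.3 ± 6.62 *in vivo*, without overlap (edgeR adjusted p = 0.279). *Furin*, which encodes a convertase of such precursors, was at 115 ± 45.9 against 222 ± 23.2 normalized CPM, also without overlap (edgeR adjusted p = 0.406). Of all genes, 9.37% did not overlap in the direction of *Smad2* and 6.81% in that of *Furin*. *Bmp15* had the fourth smallest p of the 50 genes, and *Gdf9* was not among the 9.

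The genes whose pattern was most like that of *Gdf9* over the 12 LCM libraries, by Spearman's rho of log2 CPM among genes with a mean of at least 10 CPM, were *Cdc42se2* (0.916), *Mast3* (0.916), *Rhpn2* (0.909), *Ldhb* (0.902) and *Fgf8* (0.885). For *Bmp15* they were *Pik3cd* (0.95), *Syne2* (0.925), *Hus1* (0.878), *Fgf8* (0.875) and *Atp1b2* (0.868). *Fgf8*, which encodes a fibroblast growth factor, is the gene on both lists, and its mean over these libraries was 10.98 CPM. *Gdf9* and *Bmp15* correlated with each other at rho 0.733 over the 12 LCM libraries. *Bmp15*, with a mean of 1.127 CPM there, was below the limit of 10 CPM. Set among the genes that passed, its rho would hold rank 92 of those nearest to *Gdf9*. Over the 6 MII libraries the rho of *Gdf9* and *Bmp15* was -0.771. With 6 points ties are many: 29 genes shared the order of *Gdf9* exactly (among them *Uckl1*, *Patj*, *Lrp6*, *Pacsin2* and *Sh3yl1*) and 9 that of *Bmp15* (among them *Tpd52*, *Dapk2*, *Gm49463*, *Coa5* and *Zmpste24*). The points of each set share their library preparation and differ in depth, and the correlations are descriptions.

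Markers were read in the same libraries. Over 12 LCM libraries the total count was 15149564 to 29205503, over 6 MII libraries 7334817 to 9978830. The summed TPM of 14 oocyte markers was 329 to 1706 in LCM and 5344 to 8175 in MII libraries. Most of the MII sum was *Oosp1*, at 3734 to 5564 TPM there and 0 to 6.40 in LCM libraries. *Ddx4* and *Sohlh1* ran the other way *in vivo*. Their mean TPM was 24.0 and 0 in MII, 533 and 3.59 in primary and 327 and 6.26 in primordial oocytes. *In vitro*, *Ddx4* did not, at 285 in MII against 118 in primary and 129 in primordial oocytes. The summed TPM of 12 granulosa markers was 334 to 2612 in LCM and 30.5 to 76.5 in MII libraries. Of the defining granulosa markers, *Foxl2* was at 0 in all 6 MII libraries and read in 11 of the 12 LCM libraries, and *Amh* was at 0 in the primordial and MII *in vivo* groups. *Fshr* and *Cyp19a1*, also among the 12, ran the other way: *Fshr* was at 0 in all 12 LCM libraries and read in 4 of the 6 MII libraries, and *Cyp19a1* was read in 1 LCM library and in all 6 MII libraries. Stroma and theca markers summed to 0.292 to 3.46 TPM in MII libraries, blood and vessel markers to 0 to 7503 in LCM and 35.2 to 103 in MII libraries, and 4 surface epithelium markers to 0 to 4277 and 4.28 to 25.8. In bulk libraries fewer oocytes and less RNA per oocyte cannot be told apart. Biological coefficients of variation estimated by edgeR were 2.02 in LCM and 0.726 in MII libraries, and for *Gdf9* 1.95 and 0.329.

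Primordial *in vitro* replicate 2 stood apart for some oocyte genes beyond *Gdf9*, though not for all. *Zp3*, a zona pellucida gene that growing oocytes transcribe, was at 187 TPM there, against 4.61 to 19.4 in the other 5 primordial libraries and 48.1 to 88.8 in primary libraries. The library had the highest oocyte marker sum of the 12 LCM libraries, 1706, of which *Dazl* gave 855. Primary *in vivo* replicate 3 came near it at 1650, and 14 of 14 markers were read in both. *Ddx4* and *Kit*, also among the 14, were at 68.1 and 3.99 TPM in primordial *in vitro* replicate 2. These lay within the ranges of the other 5 primordial libraries, 5.06 to 421 and 3.69 to 94.4. The granulosa sum of replicate 2 was 503, within the range of the other primordial libraries, 334 to 1263. The part that the makeup of this library had in the *Gdf9* value was not tested, and the results without it are given beside each comparison. In MII oocytes the oocyte marker sum, mostly *Oosp1*, was 6637 to 7944 *in vivo* and 5344 to 8175 *in vitro*, which overlapped. The granulosa sum was 38.4 to 76.5 and 30.5 to 62.5.

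**Figure D5:**
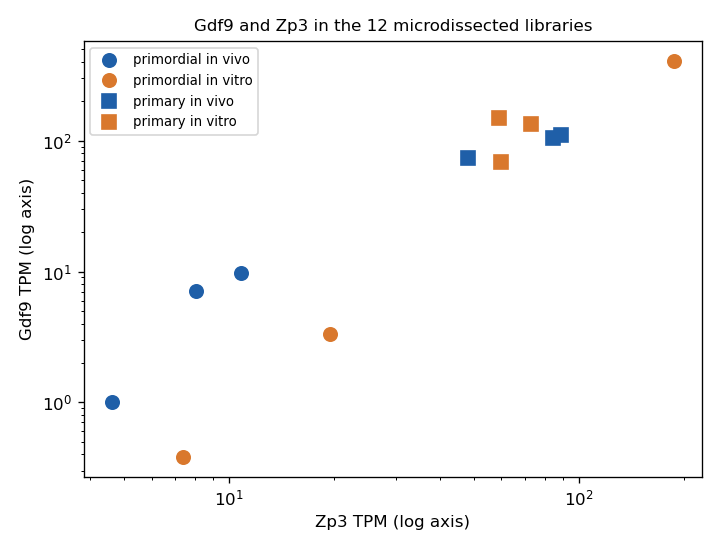
*Gdf9* TPM against *Zp3* TPM on log axes in the 12 LCM libraries, circles for primordial and squares for primary oocytes, *in vivo* in blue and *in vitro* in orange. The primordial *in vitro* library at 408 TPM of *Gdf9* and 187 TPM of *Zp3* lies above the 6 primary libraries on both axes, and the other 5 primordial libraries lie below them on both.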

How the data were processed

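RNA was measured in 18 libraries, 3 in each of 6 groups, and groups and replicate numbers were taken from the sample labels. Per the labels, the authors used Trim Galore 0.4.1 for trimming, TopHat2 for alignment (genome build mm10) and featureCounts for gene counts. Strand setting and treatment of multi-mapping reads are not given in the sources used here. The authors deposited raw read counts for 53715 genes and TPM for 28252 of them. The columns used hold no fold changes of the authors.

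Counts were tested with edgeR 4.0.16 (R 4.3.3, TMM scaling, glmQLFit with robust = TRUE, glmQLFTest), with at least 10 counts in total and Benjamini-Hochberg adjustment over all genes tested, in 1 fit of the 12 LCM libraries (15317 genes) and 1 of the 6 MII libraries (17144 genes). A gene was called at an adjusted p below 0.05 and a fold of at least 2. Normalized CPM are counts scaled by TMM library size. The ratio of the members was tested on TPM by exact permutation (scipy 1.17.1) over libraries with more than 3 counts of both. The study used DESeq2 without stating its design, and DESeq2 1.42.0 and limma 3.58.1 served as alternatives. Intervals and floors on counts cover counting error only.

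The members and the gene and marker lists were chosen with earlier results of these data known. Of the pathway list, the named genes were those called and the 2 with the smallest p in each comparison. Likeness named the 5 genes with the highest rho. *Bmpr2*, *Tgfbr1*, *Bmpr1b*, *Smad2*, *Furin*, *Cyp19a1*, *Tgfb2* and *Fshr* were named beyond that rule with their values seen. All 18 replicate pairs within groups differed beyond sampling noise. A *Gdf9* promoter and the protein sequences were not used here.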

Additional observations from a re-analysis of the deposited data

How the results depend on the processing

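Neither *Gdf9* nor *Bmp15* passed the threshold under any of the 8 other settings of each comparison (DESeq2, DESeq2's size factors, library size alone, no filter, filterByExpr, the replicate block, limma with TPM + 1 or + 0.1) or with any library left out, and in MII oocytes both kept their direction (-0.77 to -0.68 and 0.98 to 1.06). Signs turned where the main value was small or rested on 1 library, and also for the interaction of *Bmp15*. *Gdf9* in the primary culture comparison was 0.42 with library size alone and 0.22 with limma on log2(TPM + 1) and log2(TPM + 0.1). For stage *in vitro* it was 3.06 and 3.67 with limma. The interaction of *Bmp15* was 0.29 and 0.04 with limma, against -4.65 by edgeR, which ranged from -6.4 to -2 with 1 library left out. The cause was not tested. Without a turn of sign, limma with TPM + 1 and + 0.1 gave 1.28 and 1.05 for *Gdf9* in the primordial culture comparison, against 4.67 by edgeR, and for *Bmp15* 0.73 and 2.08 there, against 5.70, and 0.93 and 2.58 for stage *in vivo*, against 5.98. The interaction of *Gdf9* was -1.06 and -0.82, against -4.78. With 1 library left out, *Gdf9* ranged from -1.43 to 5.28 (primordial culture), -0.32 to 0.23 (primary culture), -5.38 to 1.33 (interaction), -1.11 to 5.57 (stage *in vitro*), 3.77 to 4.84 (stage *in vivo*) and -0.94 to -0.40 (MII), and *Bmp15* from 0.78 to 1.16 in MII oocytes. The pooled stage difference ranged from 2.89 to 5.30 for *Gdf9* and from 2 to 3.31 for *Bmp15*, and the MII ratio difference from 1.54 to 2.12. With (TPM + 1) in all 12 libraries, the primary against primordial ratio was -2.51 (exact permutation p = 0.0368), since the pseudocount sets the ratio in libraries near 0.

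The replicate numbers showed no sign of pairing the libraries. After each gene's group mean of log2 CPM was subtracted, the remainders of same-numbered libraries correlated at -0.0269 to 0.0897. Libraries of different numbers were not compared in this way. With the replicate block, *Gdf9* for stage *in vitro* was 0.95, and the block called 1 gene in the primordial culture comparison against 5 and 0 for stage *in vivo* against 8. The pathway list had 0 genes called by edgeR but 7 (primordial culture), 1 (primary culture), 2 (stage *in vivo*), 3 (stage *in vitro*) and 2 (MII) by DESeq2, and 2 in MII oocytes without a filter. Over all genes DESeq2 called 812, 254, 557, 450 and 351 against 5, 0, 8, 0 and 60 by edgeR, and edgeR without a filter called 263 in MII oocytes and limma on log2(TPM + 1) 29. In the primordial culture and *in vivo* stage comparisons edgeR with filterByExpr or without a filter, and limma, called 0. With 1 library left out edgeR called 378 in MII oocytes without *in vivo* replicate 1 and 11 to 50 without each of the other 5, 0 to 3 in the primordial culture and 0 to 11 in the *in vivo* stage comparison. At this spread between LCM libraries the 95% interval of *Gdf9* spans a wide range, and differences of several fold were not detectable in that fit. The spread was taken over both stages, and among primary libraries alone *Gdf9* varied less, with a CV of 28.1%. No edgeR fit of the primary libraries alone was made.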

Other observations

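The aromatase gene *Cyp19a1*, a granulosa marker, was read in all 6 MII libraries, with 1039, 350 and 479 counts *in vivo* and 334, 655 and 611 *in vitro*, and in 1 of the 12 LCM libraries, with 7 counts. The MII groups overlapped (edgeR log2 fold change -0.35, adjusted p = 0.845). *Foxl2*, another granulosa marker, was at 0 in the same 6 MII libraries. The TGF-β ligand *Tgfb2*, whose locus overlaps an annotated gene on the other strand, was also abundant in MII oocytes, at 485 ± 188 TPM *in vivo* and 459 ± 37.9 *in vitro*, and *Bmp15* was at 238 ± 66.7 and 473 ± 97.9. In normalized CPM *Tgfb2* was at 1030 ± 326 normalized CPM *in vivo* and 1043 ± 161 *in vitro* (SD, n = 3 each), with a log2 fold change of 0.02 (edgeR 95% interval -0.73 to 0.77, adjusted p = 0.993).

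*Ddx4*, a germ cell RNA helicase among the oocyte markers, was one of the 60 genes called in MII oocytes. Its TPM was 34.8, 13.4 and 23.9 *in vivo* and 217, 368 and 271 *in vitro*, a log2 fold change of 3.55 (edgeR adjusted p = 0.00206) with all *in vitro* libraries above all *in vivo* ones. The zona gene *Zp3* overlapped between the same groups (edgeR log2 fold change 0.28, adjusted p = 0.877).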
